A study of Homo sapiens with 6 samples.

Results

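Of 39 genes listed for the Fanconi pathway, homologous recombination and the DNA damage checkpoint, 35 were measured, by 92 probe sets, among 18239 genes on the arrays. The list was taken as given, but had been chosen with earlier results of these data known. Its counts therefore describe these genes and do not test the pathway. A gene entered when at least 1 probe set carried its symbol and no other. The remaining 4 listed genes were not analysed here. After urolithin A, 12 of the 35 genes fell, against 5.31% of all genes. By limma none of the 35 rose, whereas 4.85% of all genes rose. At an unadjusted p under 0.05, 0 of the 35 were higher, against 2288 of all 18239 genes. The steepest falls were those of RAD54B (1.85-fold), FANCI (1.78-fold) and CHEK1 (1.60-fold). The kinases ATM and ATR, at the head of the checkpoint, had log2 changes of 0.03 and -0.01, with probe sets of ATM on both sides of 0.

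RNA came from LNCaP, a cell line from a human prostate adenocarcinoma that responds to androgen, kept in F12 medium and fetal bovine serum. The urolithin A group had 3 arrays of cells kept for 24 h with 40 µM urolithin A, which gut bacteria produce from dietary ellagitannins. The control group also had 3 arrays, of cells called untreated in the titles and given saline per the treatment protocol. No solvent of urolithin A is given in the sources used here. Separate cultures are not stated for the arrays within a group, so the p-values rest on a spread that may be technical. Values are on the log2 scale with the control median of each probe set subtracted, so 0 is the control median, a fall by 1 is a 2-fold fall, and the level of a transcript cannot be read. A gene's value on an array is the mean of its probe sets. A gene fell or rose when limma's moderated test gave an adjusted p under 0.05 over all genes. Since levels had been removed, the identity of the cells could not be checked against marker levels. As differences, 3 of 8 measured luminal prostate markers fell and 1 rose, where 5.31% of all genes fell and 4.85% rose. Of 14 measured markers of basal, fibroblast, leukocyte and endothelial cells, 0 changed by limma. With so few markers, that 0 cannot be told from the shares of all genes. Also 0 of the 14 had an unadjusted limma p under 0.05, against 4393 of all 18239 genes. The leukocyte marker PTPRC, at a log2 change of 0.28 with overlapping groups, was just short of this unadjusted cutoff.

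Cells meet crosslinks and broken DNA with linked systems. In the Fanconi pathway, a core complex with the ubiquitin ligase FANCL and the conjugating enzyme UBE2T tags FANCI and its partner, which calls in nucleases, and USP1 removes the tag. Breaks are sensed and trimmed by MRE11, RAD50 and NBN with EXO1 and BLM, and the BRCA proteins load a recombinase onto the exposed strand, helped by its paralogs and by motor proteins of the RAD54 type. The kinases ATM and ATR sense breaks and bare single strands and act through CHEK2 and CHEK1 to hold the cell cycle. In dividing cells many of these genes are transcribed mainly around S phase, under E2F factors.

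The promoter windows of 4 of the genes that fell are shown. They were taken from the RefSeq promoter table (GRCh38.p14, first entry of each gene) for the genes with the largest falls other than RAD54B and FANCI, which are not shown. Each window runs 5′ to 3′ on the strand of the gene, from 250 bases before its start to 30 bases after it. Windows are from chr11:125625979-125626258 (plus strand), chr14:103715422-103715701 (minus strand), chr22:28741791-28742070 (minus strand) and chr1:241847954-241848233 (plus strand). Capitals mark a CCAAT box (CCAAT, or ATTGG where it lies on the other strand) or an E2F element (TTTCCCGC, TTTCGCGC, TTTGCCGC or TTTGGCGC on either strand).
CHEK1: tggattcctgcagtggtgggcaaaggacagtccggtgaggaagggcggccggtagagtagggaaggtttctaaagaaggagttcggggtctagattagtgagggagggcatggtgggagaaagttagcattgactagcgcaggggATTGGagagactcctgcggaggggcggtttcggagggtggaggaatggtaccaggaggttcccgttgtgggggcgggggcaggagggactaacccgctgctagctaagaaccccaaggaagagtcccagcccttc
XRCC3: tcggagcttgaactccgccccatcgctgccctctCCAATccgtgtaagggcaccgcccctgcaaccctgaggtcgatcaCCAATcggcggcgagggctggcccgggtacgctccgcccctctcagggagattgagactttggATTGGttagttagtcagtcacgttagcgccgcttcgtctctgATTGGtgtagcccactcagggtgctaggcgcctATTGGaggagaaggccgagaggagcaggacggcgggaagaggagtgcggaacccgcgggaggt
CHEK2: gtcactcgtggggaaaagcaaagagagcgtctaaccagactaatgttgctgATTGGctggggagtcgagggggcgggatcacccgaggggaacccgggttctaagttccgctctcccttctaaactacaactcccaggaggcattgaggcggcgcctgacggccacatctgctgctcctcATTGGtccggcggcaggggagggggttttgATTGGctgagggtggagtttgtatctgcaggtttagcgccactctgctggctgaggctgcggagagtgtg
EXO1: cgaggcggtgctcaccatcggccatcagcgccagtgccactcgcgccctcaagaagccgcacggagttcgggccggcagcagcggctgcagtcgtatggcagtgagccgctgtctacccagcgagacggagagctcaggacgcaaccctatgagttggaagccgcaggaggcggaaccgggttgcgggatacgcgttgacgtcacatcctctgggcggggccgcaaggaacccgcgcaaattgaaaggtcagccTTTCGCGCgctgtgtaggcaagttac

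In these windows CHEK1 holds 1 CCAAT box, CHEK2 holds 3 and XRCC3 holds 5. EXO1 holds 1 E2F element, TTTCGCGC, at bases 5 to 12 of the transcript. Across the first table entry of each gene, an E2F element was found for 2 of 9 genes that fell, XRCC2 and EXO1, for 3 of 23 that did not pass (FANCC, MSH6 and TOPBP1), and in 4.31% of 14492 measured genes. CCAAT boxes lay in 6 of 9 windows of genes that fell, in 10 of 23 of those that did not pass, and in 35.8% of measured genes. The cell cycle homology region (TTTGAA or TTCGAA on either strand) was found in 1 of 9 and 3 of 23 windows, and in 13% of measured genes. In the windows shown, no match of 1 motif overlapped a match of another. These are matches of letters and were not tested as binding sites.

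Over the 35 genes the median log2 change was -0.25, against 0.01 over all genes. The median of the 35 genes was -0.26, -0.23 and -0.26 on urolithin A replicates 1, 2 and 3, against 0, 0.03 and -0.03 on control replicates 1, 2 and 3. In 28 genes the change was below 0, as in 46.9% of all genes, and in 21 genes every urolithin A array lay below every control array, which held for 13.7% of all genes. Only BARD1 lay wholly above the controls, as did 15.6% of all genes. The count of 12 dropped to 4 without control replicate 2 and to 6 without control replicate 1 or urolithin A replicate 3, whereas the median stayed between -0.31 and -0.21 without any single array. It was 3 (RAD54B, FANCI and CHEK1) when arrays were scaled on hybridization controls, with a median of -0.22 and a standard error of 0.157 for each gene. It was 1 (UBE2T) without moderation of the variances, which leaves every log2 change as it was. Leaving out replicate 3 of both groups, the arrays with the lowest 18S ribosomal RNA of their groups (-0.46 with urolithin A and -0.42 in control), gave 6 genes and a median of -0.26.

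**Figure D1:**
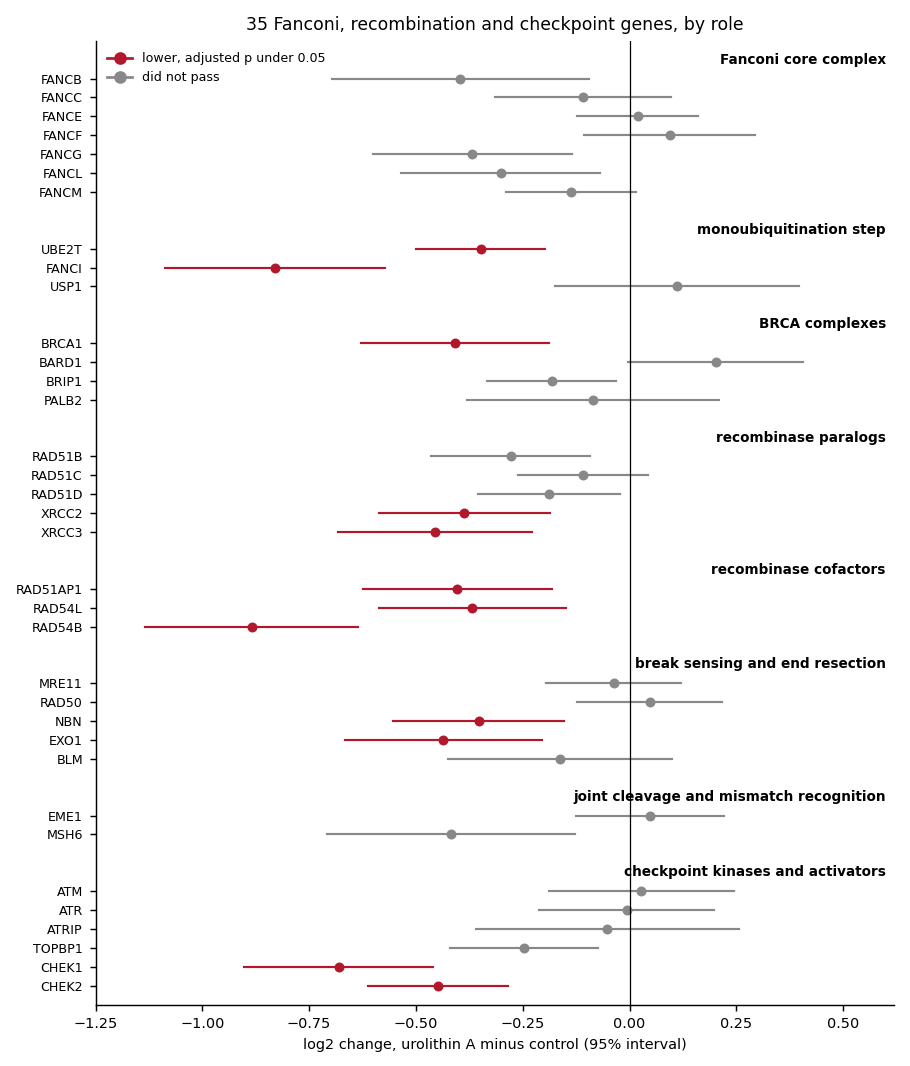
Log2 change (urolithin A minus control, horizontal axis) of each of the 35 genes, grouped by role, with its 95% interval from the limma fit, not adjusted for the number of genes. Red genes passed at an adjusted p under 0.05; all 12 lie left of 0, with RAD54B at -0.88, FANCI at -0.83 and CHEK1 at -0.68.

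Genes of DNA replication also fell. Of 7 measured S phase genes, the MCM helicase subunits and PCNA, 4 fell (MCM3, MCM4, MCM6 and MCM7), and their median was -0.49. Of 7 mitotic genes 1 fell, MKI67, and the median was -0.18. For both lists the share of all genes that fell was 5.31%. In 6 of the 7 mitotic genes the change was below 0 (46.9% of all genes), with PLK1 at -0.35 (adjusted p = 0.104). The S phase list had medians of -0.49, -0.36 and -0.64 on urolithin A replicates 1, 2 and 3 and of 0.05, 0.02 and -0.14 on control replicates 1, 2 and 3. In bulk RNA, fewer cells in S phase and less transcript per cell cannot be told apart, and the part of S phase in the changes was not tested.

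**Figure D2:**
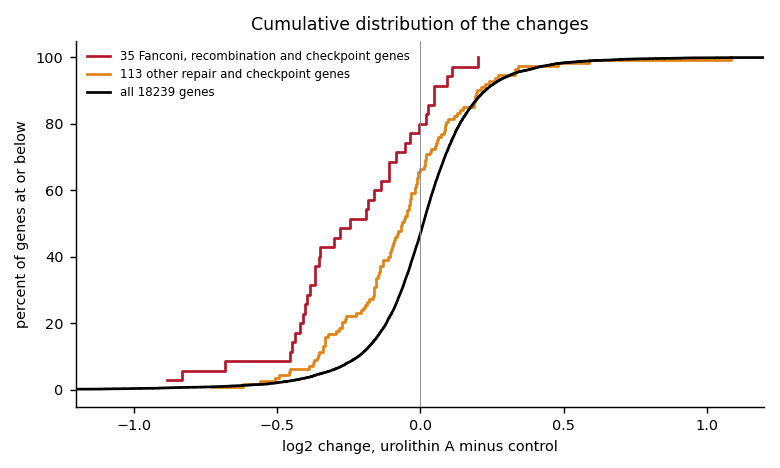
Cumulative percent of genes (vertical axis) at or below a log2 change (urolithin A minus control, horizontal axis) for the 35 genes, 113 other repair and checkpoint genes and all 18239 genes; changes beyond 1.2 in size are not drawn. The median is -0.25 for the 35 genes, -0.06 for the other repair genes and 0.01 for all genes.

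By limma 0 of the 7 measured genes of the Fanconi core complex passed the test, where 5.31% of all genes fell and 4.85% rose. With so few genes, 0 cannot be told from those shares. At an unadjusted p under 0.05 were 3 of the 7, as were 4393 of all 18239 genes. The median log2 change of the 7 was -0.14. FANCG, a scaffold subunit, had -0.50, -0.51 and -0.15 on urolithin A replicates 1 to 3, against 0, -0.06 and 0.01 on control replicates 1 to 3. Its groups did not overlap and its log2 change was -0.37, just short of the threshold (SE 0.10, adjusted p = 0.0572). FANCB, a core subunit whose gene lies on the X chromosome, and the ligase FANCL had log2 changes of -0.40 (adjusted p = 0.104) and -0.30 (adjusted p = 0.109). The core subunit genes FANCC, FANCE and FANCF and the DNA translocase gene FANCM had changes from -0.14 to 0.09. FANCG passed with arrays centred on their medians (log2 change -0.38, adjusted p = 0.0486), with array weights (-0.38, adjusted p = 0.0455) and without urolithin A replicate 3 (-0.49, adjusted p = 0.00918), and FANCL without control replicate 3 (-0.41, adjusted p = 0.0293).

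At the ubiquitin step, transcripts of FANCI, whose protein is tagged, and of the conjugating enzyme UBE2T fell. Those of USP1, which removes the tag, did not pass, nor did those of the ligase FANCL (log2 change -0.30, adjusted p = 0.109). FANCI had -0.95, -0.57 and -0.93 on urolithin A replicates 1 to 3, against -0.09, 0.13 and 0 on control replicates 1 to 3. The groups were far apart, with a 1.78-fold fall (log2 change -0.83, SE 0.11, adjusted p = 0.00335). All 3 probe sets of FANCI passed on their own, at -1.06, -0.83 and -0.60. UBE2T had -0.36, -0.30 and -0.42 with urolithin A, against -0.07, 0.03 and 0 in control. The arrays of each group lay close together, and the fall of UBE2T was 1.27-fold (log2 change -0.35, SE 0.07, adjusted p = 0.0137). This call ended without control replicate 2 (adjusted p = 0.0544). USP1 had a log2 change of 0.11 (95% interval from -0.17 to 0.40, adjusted p = 0.659), and its urolithin A arrays ran from -0.21 to 0.30, across the range of the controls. Its probe sets disagreed, with 2 at -0.05 and 1 at 0.43.

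Of the BRCA group, BRCA1 fell and its partners did not pass. BRCA1, a ubiquitin ligase subunit that promotes recombination, had -0.30, -0.43 and -0.52 on urolithin A replicates 1 to 3, against 0.03, 0.12 and -0.18 on control replicates 1 to 3. The groups did not overlap and the fall was 1.33-fold (log2 change -0.41, SE 0.10, adjusted p = 0.0316). All 5 probe sets were below 0, from -0.73 to -0.10, and 2 passed on their own. BARD1, with which BRCA1 forms its ligase, had 0.16, 0.14 and 0.13 with urolithin A, against 0, 0.08 and -0.25 in control. It thus lay above the controls on every array, but by little (log2 change 0.20, SE 0.09, adjusted p = 0.216). BRIP1, a helicase that binds BRCA1, had a log2 change of -0.18 (adjusted p = 0.13) with groups apart, and PALB2, a bridging protein of the complex, one of -0.08 (adjusted p = 0.76) with groups that overlapped. The call of BRCA1 ended without urolithin A replicate 2 or 3 or control replicate 1 or 2, at adjusted p up to 0.103. It also ended without its 3 probe sets marked for shared sequence (log2 change -0.26, adjusted p = 0.15) and with its first probe set alone (-0.38, adjusted p = 0.168).

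All 5 recombinase paralogs had urolithin A arrays wholly below the controls, as did 13.7% of all genes. XRCC2 and XRCC3 passed, where 5.31% of all genes fell. XRCC3 had -0.48, -0.23 and -0.60 on urolithin A replicates 1 to 3, against 0.10, 0 and -0.04 on control replicates 1 to 3. Urolithin A replicate 2 was the closest to the controls, and the fall was 1.37-fold (log2 change -0.46, SE 0.10, adjusted p = 0.0237). XRCC2 had -0.29, -0.54 and -0.46 with urolithin A, against -0.16, 0 and 0.04 in control. Here urolithin A replicate 1 was the closest, and the fall was 1.31-fold (log2 change -0.39, SE 0.09, adjusted p = 0.028). RAD51B, RAD51C and RAD51D had log2 changes of -0.28, -0.11 and -0.19 (adjusted p = 0.0679, 0.376 and 0.153), and a single probe set each of RAD51B (-0.49) and RAD51D (-0.34) passed on its own. With the median of probe sets in place of the mean, both genes passed, RAD51B at -0.30 (adjusted p = 0.039) and RAD51D at -0.22 (adjusted p = 0.0455). The call of XRCC3 ended without urolithin A replicate 1 or 3 or control replicate 1 or 2 (adjusted p up to 0.0841), and that of XRCC2 without urolithin A replicate 2 or 3 or control replicate 2 or 3 (adjusted p up to 0.0912). The call of XRCC2 rests on 2 probe sets, both marked for shared sequence, and it ended with the first of them alone (log2 change -0.26, adjusted p = 0.285).

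Each of the 3 measured cofactors of the recombinase fell, where 5.31% of all genes fell. RAD54B, a motor protein that remodels DNA during strand exchange, had -0.74, -0.75 and -1.13 on urolithin A replicates 1 to 3, against -0.06, 0.06 and 0.03 on control replicates 1 to 3. This was the deepest fall of the 35 genes (log2 change -0.88, SE 0.11, adjusted p = 0.00212), and both of its probe sets passed on their own. RAD51AP1, which stimulates the recombinase, had -0.31, -0.35 and -0.63 with urolithin A, against 0, 0.05 and -0.13 in control. The fall was 1.32-fold (log2 change -0.40, SE 0.10, adjusted p = 0.034), and its 4 probe sets lay between -0.50 and -0.25. RAD54L, the other motor protein, had -0.44, -0.24 and -0.58 with urolithin A, against -0.15, 0 and 0 in control. Its groups were apart by less, with a 1.29-fold fall (log2 change -0.37, SE 0.10, adjusted p = 0.045), and its single probe set did not pass when tested among all probe sets (adjusted p = 0.0727). The call of RAD51AP1 ended without urolithin A replicate 2 or 3 or control replicate 1 or 2 (adjusted p up to 0.112), and that of RAD54L without every single array other than urolithin A replicate 2 (adjusted p up to 0.135). With its first probe set alone RAD51AP1 had a log2 change of -0.25 (adjusted p = 0.323), a smaller value by over 1.5 times. RAD54L, with its single probe set, also did not pass when the other genes were summarised by the median or the first of their probe sets, without probe sets marked for shared sequence, or with array weights (adjusted p = 0.0517, 0.071, 0.0506 and 0.0534).

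**Figure D3:**
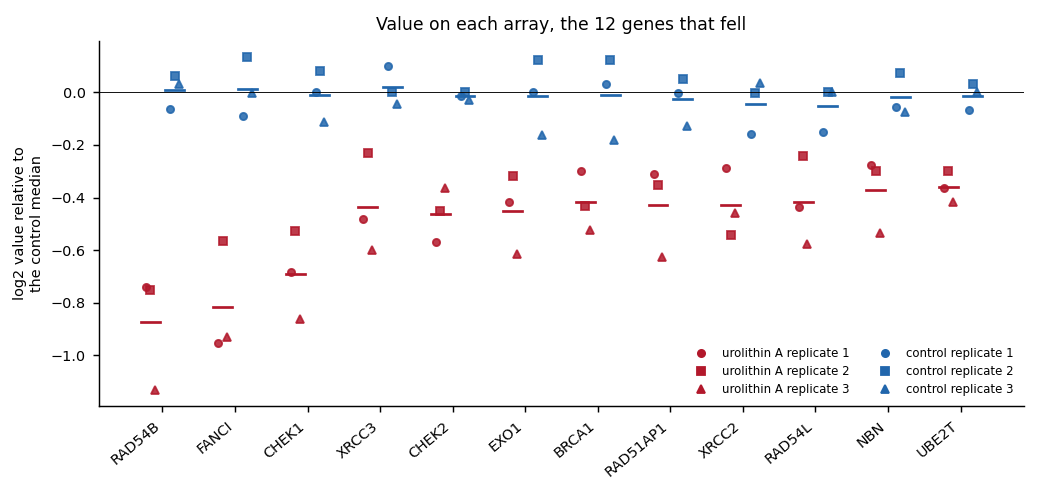
Log2 value relative to the control median (vertical axis) on each array for the 12 genes that fell, in order of their change, with urolithin A in red left of control in blue; symbols mark the replicate number and bars the mean of 3 arrays. In every gene all urolithin A arrays lie below all control arrays (13.7% of all genes), and RAD54B, FANCI and CHEK1 are set furthest apart. The genes were picked as lower on these same arrays, so the separation adds no support.

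Among genes that sense and trim broken ends, NBN and EXO1 fell, and MRE11 and RAD50, which form a complex with NBN, did not pass. EXO1, an exonuclease that lengthens the exposed strand, had -0.42, -0.32 and -0.61 on urolithin A replicates 1 to 3, against 0, 0.12 and -0.16 on control replicates 1 to 3. The fall was 1.35-fold (log2 change -0.44, SE 0.10, adjusted p = 0.0296), with replicate 3 the lowest array in both groups. NBN had -0.28, -0.30 and -0.54 with urolithin A, against -0.05, 0.07 and -0.07 in control. The fall was 1.28-fold (log2 change -0.35, SE 0.09, adjusted p = 0.0381), but its 5 probe sets ran from -0.60 to -0.01 and 2 passed on their own. MRE11, the nuclease of the complex, and RAD50, its ATPase, had log2 changes of -0.04 (95% interval from -0.20 to 0.12) and 0.05 (from -0.12 to 0.22). The MRE11 value averages probe sets that disagreed, since 1 of 5 fell on its own (-0.55, adjusted p = 0.00844) and the others lay between -0.02 and 0.26. The helicase gene BLM had a log2 change of -0.16 (adjusted p = 0.454), with overlapping groups. The call of NBN ended without each of the 6 arrays in turn (adjusted p from 0.0546 to 0.125), and that of EXO1 without urolithin A replicate 1 or 3 or control replicate 1 or 2 (adjusted p up to 0.0976).

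EME1, a partner of the nuclease that cuts joined DNA molecules, had a log2 change of 0.05 (adjusted p = 0.765), and its groups overlapped. MSH6, which recognises mismatched bases, had -0.31, -0.27 and -0.67 on urolithin A replicates 1 to 3, against 0, 0.19 and -0.18 on control replicates 1 to 3. Its groups were apart and its log2 change of -0.42 was as large as that of several genes that passed, with a wider spread (SE 0.13, adjusted p = 0.0774).

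In the checkpoint, the effector kinases CHEK1 and CHEK2 fell and the sensor kinases did not pass. CHEK1, which stops the cycle when replication stalls, had -0.68, -0.53 and -0.86 on urolithin A replicates 1 to 3, against 0, 0.08 and -0.11 on control replicates 1 to 3. Its fall was 1.60-fold (log2 change -0.68, SE 0.10, adjusted p = 0.00407), and all 6 of its probe sets passed on their own, from -0.94 to -0.52. CHEK2, which acts mainly after double-strand breaks, had -0.57, -0.45 and -0.36 with urolithin A, against -0.01, 0 and -0.03 in control. Its fall was 1.36-fold (log2 change -0.45, SE 0.07, adjusted p = 0.00688), and 2 of its 3 probe sets passed, the remaining probe set being at -0.13. CHEK1, CHEK2, FANCI and RAD54B kept their calls without each of the 6 arrays in turn, at adjusted p up to 0.0304.

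ATM had 0.11, -0.15 and 0.02 on urolithin A replicates 1 to 3, against -0.19, 0 and 0.08 on control replicates 1 to 3. ATR had 0.02, -0.01 and 0.08 with urolithin A, against -0.10, 0.22 and 0 in control. Both genes overlapped between groups, and the 95% intervals of their log2 changes ran from -0.19 to 0.24 for ATM and from -0.21 to 0.20 for ATR. The 5 probe sets of ATM ran from -0.44 to 0.39, and none passed. That at 0.39 was just short of the threshold (limma, adjusted p = 0.0528 over all probe sets). ATR was measured by 1 probe set. ATRIP, the partner that brings ATR to single-stranded DNA, had -0.28, -0.04 and -0.30 with urolithin A, against 0, 0.01 and -0.46 in control. Its spread was wide in both groups, and its log2 change was -0.05 (SE 0.13, adjusted p = 0.869). TOPBP1, which activates ATR, had -0.26, -0.25 and -0.33 with urolithin A, against 0, 0.06 and -0.16 in control. TOPBP1 lay below the controls on every array and did not pass (log2 change -0.25, SE 0.08, adjusted p = 0.0809).

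Whether partners changed unequally was examined for 8 pairs as the difference of their values on the same array, with an exact two-sided permutation test over arrays whose smallest possible p was 0.1. In 3 pairs the groups did not overlap, each at exact permutation p = 0.1 (0.267 adjusted over the 8 pairs). With that smallest p, no pair could pass at 0.05. Among single genes 13.7% lay wholly below and 15.6% wholly above the controls, and the share over other pairs of genes was not computed. BRCA1 minus BARD1 was -0.46, -0.58 and -0.65 on urolithin A replicates 1 to 3, against 0.03, 0.05 and 0.07 on control replicates 1 to 3. This separation was fixed by the single genes, since BRCA1 lay wholly below the controls and BARD1 wholly above them. It adds nothing to those values. UBE2T minus USP1 had a shift of -0.46 between groups, and RAD54L minus RAD54B one of 0.52, as RAD54B fell further. CHEK1 minus CHEK2 shifted by -0.23 and XRCC2 minus RAD51D by -0.20, with overlapping groups (exact permutation p = 0.2 each). ATM minus ATR, ATR minus ATRIP and MRE11 minus RAD50 shifted by 0.03, 0.05 and -0.08, also with overlap (exact permutation p from 0.6 to 0.8).

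**Figure D4:**
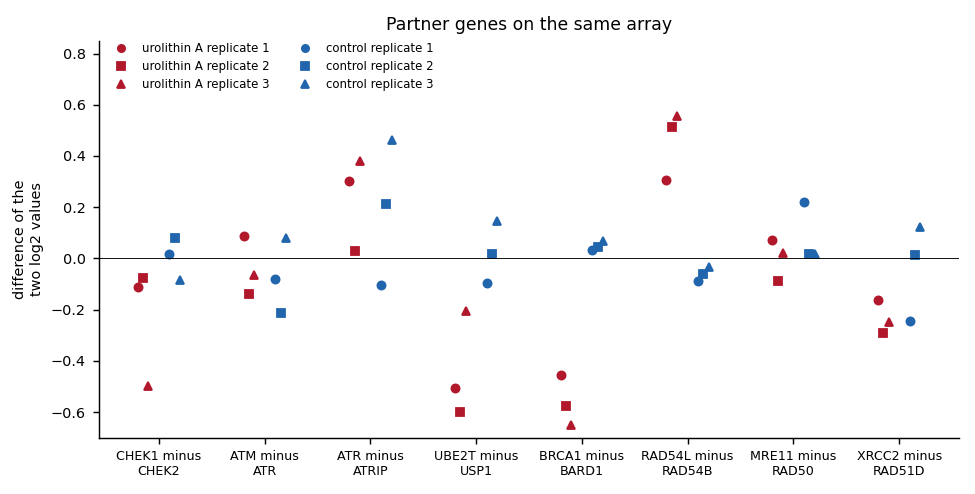
Difference of the log2 values of 2 partner genes on the same array (vertical axis) for 8 pairs, with urolithin A in red left of control in blue and symbols for the replicate number. BRCA1 minus BARD1 and UBE2T minus USP1 lie below the controls and RAD54L minus RAD54B above them on all 3 urolithin A arrays; the other 5 pairs overlap.

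Of the 92 probe sets, 26 fell on their own (28.3%, against 4.44% of all single-symbol probe sets) and 74 had changes below 0. None of the 92 rose by limma, where 4.06% of all rose, and 2 were higher at an unadjusted p under 0.05. In 14 of the 23 genes with several probe sets all of them were below 0, and in the other 9 they pointed both ways. Those 9 were ATM, FANCC, FANCE, FANCF, MRE11, RAD50, RAD51C, RAD51D and USP1, none of which passed as a gene.

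**Figure D5:**
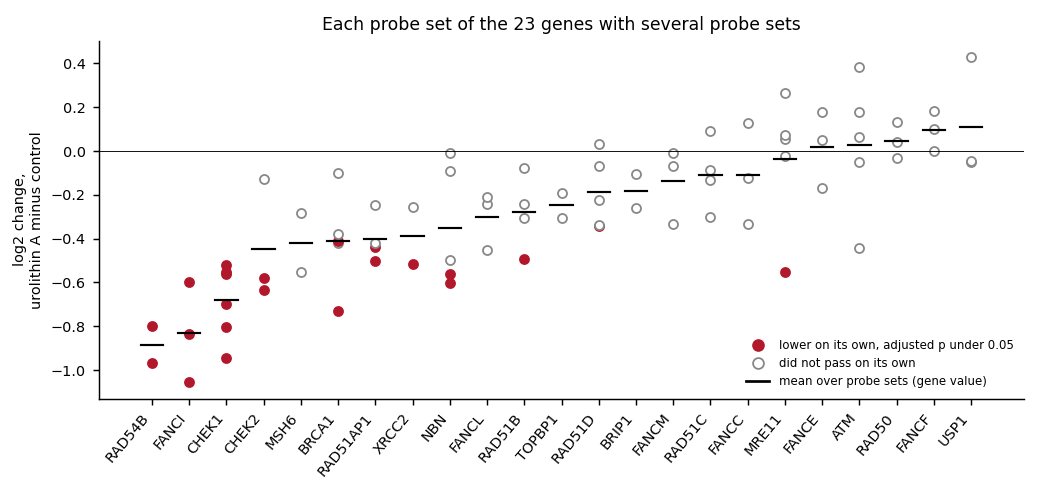
Log2 change (urolithin A minus control, vertical axis) of each probe set of the 23 genes that have several, ordered by the gene value (black bar, their mean); filled points fell on their own at an adjusted p under 0.05. All probe sets of RAD54B, FANCI and CHEK1 fell, whereas those of MRE11, ATM and USP1 spread on both sides of 0.

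Of 122 other repair and checkpoint genes in 5 further lists, 113 were measured. Of these 12 fell (10.6%, against 5.31% of all genes), and 7 rose (6.2%, near the 4.85% of all genes). The other 94 did not pass. Their overall median, all 113 included, was -0.06. The difference from the 35 genes was not tested. Of 19 other checkpoint genes 6 fell (31.6%), led by HUS1, a subunit of the clamp that helps activate ATR, at 1.53-fold (log2 change -0.62, adjusted p = 0.00452). The phosphatase gene CDC25C, which drives entry into mitosis, and TIPIN, which protects stalled forks, fell by 0.37 and 0.36 on the log2 scale, and WEE1, PKMYT1 and MDC1 also fell. No probe set of MDC1 passed on its own (adjusted p from 0.15 to 0.278). The only checkpoint gene that rose was PPM1D, a phosphatase that ends the damage signal, at a log2 change of 0.27 (adjusted p = 0.0487).

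In the remaining 4 lists the shares that rose, and in recombination, end joining and excision repair also those that fell, lay near or below the shares of all genes (5.31% lower and 4.85% higher), so these genes are named as single results. Of 31 other recombination genes 1 fell (3.23%), MCM8, a helicase subunit, at 1.65-fold (log2 change -0.73, adjusted p = 0.00374), and the helicase genes FBH1 and HELQ rose by 0.33 and 0.34 (6.45% of the list). Neither probe set of HELQ passed on its own (adjusted p = 0.11 and 0.346). Of 15 other genes of crosslink repair 2 fell (13.3%) and 1 rose (6.67%). The nuclease gene DCLRE1B and the chromatin gene UHRF1 fell (log2 changes -0.45 and -0.33), and ERCC4, a nuclease subunit, rose by 0.33. The probe sets of ERCC4 ran from 0.01 to 0.72, and 1 of the 3 of UHRF1 lay at 0.09. Among 17 end joining genes LIG4, the ligase that seals the break, rose by 0.48 and PAXX fell by 0.32 on the log2 scale (5.88% of the list each). Of 31 excision and mismatch repair genes 2 rose and 2 fell (6.45% each). Those that rose were the damage recognition genes DDB2 (log2 change 1.08, adjusted p = 0.000222) and XPC (0.59, adjusted p = 0.00473). The genes UNG, which removes uracil from DNA, and APEX2, a nuclease, fell, by 0.56 and 0.51 on the log2 scale.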

How the data were processed

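Total RNA of 6 LNCaP samples, 3 with urolithin A and 3 control, was measured on Affymetrix U219 arrays; groups and replicate numbers come from the titles. The authors deposited log2 values of 49386 probe sets made with RMA (version not given), per the submitters' processing notes. The median of the 3 control arrays is exactly 0 in every probe set, so that median was subtracted before deposition. The log base, not stated, was taken as 2. With levels removed, filters on dim probe sets were not possible, and no genome build is given in the sources used here.

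Probe sets with a single symbol in the platform annotation (45253, leaving out 6 control probe sets with a symbol) were averaged per gene. The fit used limma 3.58.1 under R 4.3.3, with treatment alone in the model, moderated variances (eBayes), two-sided p-values and Benjamini-Hochberg adjustment over 18239 genes; blocks, other summaries and scalings and single left-out arrays were tried as alternatives. In data simulated with these variances, 67 genes were changed by 1.25-fold, 67 by 1.5-fold and 66 by 2-fold, of 18239. The share of changed genes recovered was 20.9% at 1.25-fold, 92.5% at 1.5-fold and 100% at 2-fold. Far more genes were called on the arrays (969 lower and 885 higher), and recovery with so many changed genes was not simulated. The number of arrays limits the precision. Every pair of arrays had equal values in 6 to 23 of the 49386 probe sets and differed in the rest, and the labels name no batch or scan date. All 35 measured genes are named, and from each further list up to 3 genes with the smallest p among those that passed; WEE1, PKMYT1, MDC1, PPM1D and APEX2 were added after their values were seen. The members, lists and alternatives were chosen with earlier results of these data known.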

Additional observations from a re-analysis of the deposited data

How the results depend on the processing

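The count of 12 fallen genes was within 1.5 times under the replicate block (13). The block ended the call of XRCC2 (adjusted p = 0.0556) and gave calls to FANCG (adjusted p = 0.0491) and MSH6 (adjusted p = 0.0174). Deviations of same-numbered arrays correlated at 0.078, 0.023 and 0.196 for replicates 1, 2 and 3, and those of differently numbered arrays at -0.143 to 0.073. Under the block the standard error went from 0.0968 to 0.0673 for CHEK1 and from 0.127 to 0.0705 for MSH6. That of XRCC2 rose from 0.0881 to 0.0963. Only replicate 3 stood apart, since urolithin A replicate 1 had 0.073 with control replicate 2, and urolithin A replicate 2 had 0.049 with control replicate 1. Whether arrays of the same number share part of their spread was not tested. The labels state no pairing, so the block was kept as an alternative. As reported, 12 of the 35 genes were lower, 969 genes lower and 885 higher in all, and 12 other repair genes lower and 7 higher. Scaling on the hybridization controls, which lay at -0.25 on urolithin A replicate 2 and 0.14 on replicate 3, left 3 of the 35 genes lower, 372 genes lower and 406 higher in all, and 3 other repair genes lower and 3 higher. Without moderation these counts were 1, 298, 262, 2 and 1, at a threshold of 0.01 they were 4, 370, 272, 4 and 2, and without replicate 3 of both groups 6, 455, 386, 4 and 2. Without each single array they ran from 4 to 10, 581 to 681, 482 to 628, 6 to 10 and 2 to 4; the count of the 35 genes that rose stayed at 0, and their median ran from -0.311 to -0.209. Without probe sets marked for shared sequence the median was -0.19 over 33 genes (-0.247 for these genes as reported), since XRCC2 and ATRIP had no other probe sets, and it was -0.348 with the probe set of smallest p per gene, where 1380 genes rose. The cause was not tested.

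Signs changed in 21 values of genes that had not passed, and none of these passed. With the median of probe sets they were FANCE (-0.0112), USP1 (-0.0244) and MRE11 (0.1598), and MRE11 minus RAD50 became 0.1177. With the first probe set they were FANCC (0.1301), FANCF (-0.0009), USP1 (-0.0483) and ATM (-0.4408), and with the hybridization scaling ATR (0.0208). Without replicate 3 of both groups they were FANCE (-0.0014) and PALB2 (0.0219). Without single arrays the values ran from -0.049 to 0.0971 for ATM, -0.0002 to 0.2557 for USP1, -0.0718 to 0.0128 for MRE11, -0.0055 to 0.1133 for EME1, -0.0776 to 0.0839 for ATR, -0.0166 to 0.0917 for RAD50, -0.2084 to 0.027 for ATRIP and -0.2066 to 0.0639 for PALB2.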
